A study of Mus musculus with 5 samples.

Results

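B lymphocytes were described in 5 single-cell RNA libraries of mouse kidney, made from a control and from the acute (acute kidney injury, AKI) and chronic (chronic kidney disease, CKD) phases of a toxic nephropathy. A cell barcode was kept if at most 30% of its UMIs (unique molecular identifiers, each standing for 1 captured RNA molecule) came from mitochondrially encoded genes and if at least 200 genes were detected. A kept barcode was taken as a B lymphocyte if Cd79a, Cd79b and Ms4a1 together had at least 4 UMIs, at least 2 of these 3 genes were detected, the Cd3 genes of T lymphocytes had at most 1 UMI in all and the C1q genes of macrophages at most 2. This selected 457 of the 60043 kept barcodes, out of 72896 deposited ones.

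All mice were male wild-type C57BL/6 animals aged 8 to 10 weeks. The control mice received vehicle and gave 1 library. The AKI mice received aristolochic acid I, a plant toxin that damages the proximal tubule, intraperitoneally at 3 mg/kg, 1 dose every 3 days up to week 2, when their kidneys were taken (2 libraries), and the CKD mice received the same course and were then left without the toxin until week 4 (2 libraries). Whole kidneys were minced, digested with collagenase type IV and DNase I and loaded without selection of any cell type, and the labels do not say whether each library held 1 mouse. Values of the 5 libraries are given below in the order control, AKI 1, AKI 2, CKD 1 and CKD 2. Levels are UMIs of a gene per 10000 UMIs of the cells named, and p-values measure the spread between libraries. In the comparison of B with T lymphocytes that spread is taken over the sums of both cell types together.

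The libraries held between 90028670 and 121316769 UMIs over all barcodes, and their B lymphocytes held between 135816 and 764990. The median B lymphocyte had 2640, 3161, 3075, 2270.5 and 3038.5 UMIs. The control library stood apart, since 38.7% of its barcodes exceeded the mitochondrial limit against 11.1% to 12.7% of the others, and having no second control library it cannot be told apart from its group. Of the members, 2, 1, 1, 0 and 2 carried a barcode sequence that another library also held, and in no case were both of them B lymphocytes. No doublet caller was run. The limits on Cd3 and C1q UMIs removed 7, 11, 3, 13 and 11 barcodes, and 11, 3, 1, 4 and 4 members had more than 3 times the median UMIs of the B lymphocytes of their library.

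B lymphocytes bind antigen through a membrane immunoglobulin whose signal is passed on by the CD79A and CD79B proteins. A naive follicular B lymphocyte makes the mu and delta heavy chains (Ighm, Ighd) side by side, and class switching replaces them with a gamma, alpha or epsilon chain. Plasma cells, the secreting end of the lineage, fill their RNA with immunoglobulin transcripts, make the J chain (Jchain) that joins secreted IgA and IgM into polymers, and give up Ms4a1 (CD20) and Pax5. Healthy kidney holds few B lymphocytes, which recirculate through blood and lymphoid organs.

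The cells carried the markers of the lineage beyond the 3 genes that chose them. Cd79a (GRCm39, chromosome 7, 24596740 to 24601622) had a level of 14.5, 12.1, 18.8, 14.5 and 19.8, Cd79b (chromosome 11, 106202167 to 106205588) of 5.86, 2.47, 5.30, 3.51 and 4.35, and Ms4a1 (chromosome 19, 11227039 to 11243605) of 4.14, 3.12, 3.76, 3.74 and 4.37. These values chose the members and are given as a description. At the threshold, 21, 4, 0, 16 and 2 members had exactly 4 marker UMIs, and 14, 3, 1, 7 and 5 barcodes that met the other conditions had 3 and stayed outside.

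Genes that the selection did not use were those of the same lineage. Ebf1, a transcription factor that commits cells to the B lineage, had a level of 11.3, 8.83, 12.7, 11.8 and 16.2 in B lymphocytes, while T lymphocytes, chosen by the mirrored conditions on the Cd3 genes (978, 5701, 5344, 5172 and 5998 barcodes), had 0.0391 to 0.0894. Fcmr, the receptor for the Fc part of IgM, had 3.54, 2.17, 3.68, 2.80 and 3.35, against at most 0.00361 in T lymphocytes. Pax5, which holds the B lineage programme in place, had 1.79, 0.723, 1.18, 1.33 and 1.74. All 21 identity genes listed outside the selection were detected in every library, and their summed level was 48.1, 38.4, 53.8, 42.3 and 60.0 in B and 2.29 to 3.34 in T lymphocytes. No library fell out of this pattern.

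**Figure D1:**
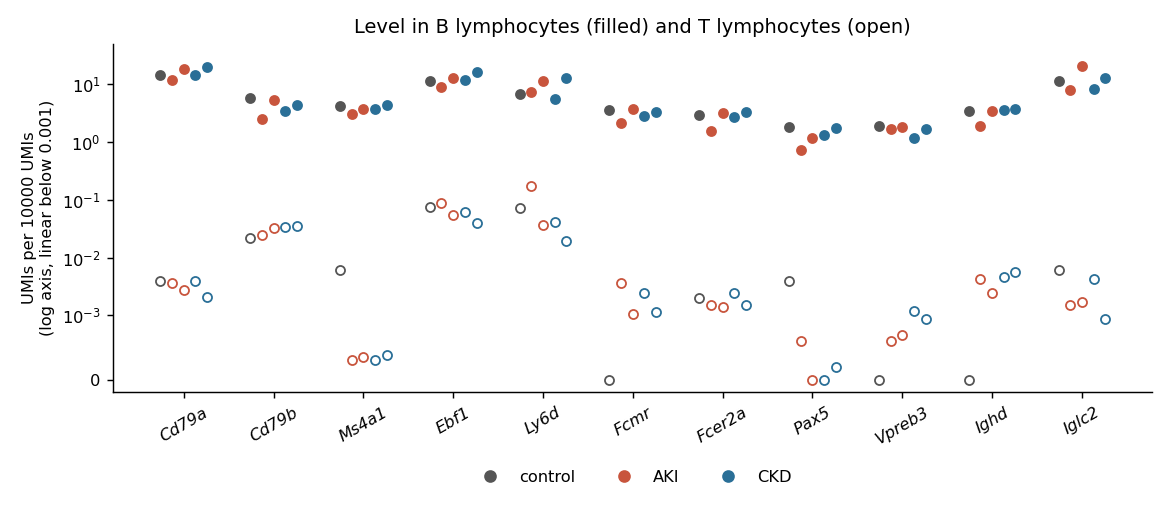
Level of 11 B lymphocyte genes (UMIs per 10000 UMIs, log axis that is linear below 0.001) in B lymphocytes (filled) and T lymphocytes (open) of the 5 libraries, coloured by group. Every filled point lies above every open point of the same gene, with Ebf1 at 8.83 to 16.2 in B and at most 0.0894 in T lymphocytes. Cd79a, Cd79b and Ms4a1 chose the cells, so their separation was fixed in advance and they are shown as a description.

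Transcripts of other cell types were present. With all members counted, those of tubule cells matched the level of the identity genes in some libraries. The summed level of 15 T lymphocyte genes was 1.99, 3.50, 9.79, 3.91 and 7.42 in B lymphocytes and 70.2 to 118 in T lymphocytes. Among macrophage genes, Adgre1 (F4/80) had 1, 1, 1, 0 and 0 UMIs and Csf1r 6, 0, 3, 11 and 1, and the summed level of the 17 macrophage and monocyte genes was 8.31, 15, 14.2, 30.6 and 13.6, beside 9.48, 10.4, 13, 18.2 and 13.2 in T lymphocytes. The 5 haemoglobin and red cell genes summed to 0.0654 in the control and were at 0 in the 4 other libraries. Transcripts of 20 proximal tubule genes summed to 46.0, 14.9, 13.8, 33.9 and 6.70, beside 35.6, 24.1, 20.7, 34.9 and 8.43 in T lymphocytes of the same libraries. The 12 genes of other tubule segments summed to 41.9, 36.0, 13, 49.2 and 3.49, beside 46.6, 33.0, 23.3, 27.8 and 5.98 in T lymphocytes. In the control the proximal tubule sum was near the 48.1 of the 21 identity genes. In CKD 1 the other tubule sum was above their 42.3, and in CKD 2 both tubule sums were far below the identity sum of 60.0. Members of more than 3 times the median UMIs weighed on these sums. Without them the control had 38.1 for proximal tubule against 62.9 for identity genes. CKD 1 then had 29.8 for other tubule against 55.4 for identity genes, and 10.8 for macrophage and monocyte genes.

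B lymphocytes formed a larger share of the cells in the control than in either disease phase. They were 207 of 9168 kept barcodes in the control (2.26%, exact 95% binomial interval 1.96 to 2.58), 47 of 11203 in AKI 1 (0.420%, 0.308 to 0.558) and 35 of 10852 in AKI 2 (0.323%, 0.225 to 0.448). In the CKD phase they were 72 of 19314 in CKD 1 (0.373%, 0.292 to 0.469) and 96 of 9506 in CKD 2 (1.01%, 0.819 to 1.23). The control share was 6.09 times the AKI mean (0.371% ± 0.0686, SD, n = 2) and 3.27 times the CKD mean (0.691% ± 0.450, n = 2), with no replicate of the control. CKD 1 lay between the 2 AKI libraries, and CKD 2 lay above all 3 with an interval that did not touch theirs.

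The share did not separate AKI from CKD beyond the spread of the replicates. The CKD mean exceeded the AKI mean by 0.320 percentage points, with a pooled SD between libraries of 0.322, and 2 against 2 libraries cannot give an exact permutation p below 0.333. Without CKD 2 the difference was 0.00176 and without CKD 1 it was 0.639 percentage points. The intervals cover counting error only.

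Counted among leukocytes, the control again had the highest share. Among kept barcodes with at least 1 UMI of Ptprc (CD45, the pan-leukocyte antigen), B lymphocytes with Ptprc were 4.36%, 0.370%, 0.331%, 0.434% and 0.859%. For every 100 T lymphocytes there were 21.2, 0.824, 0.655, 1.39 and 1.60 B lymphocytes. T lymphocytes themselves were 10.7% of kept barcodes in the control and 50.9%, 49.2%, 26.8% and 63.1% in the other libraries. A share therefore moves with the number of T lymphocytes and with the cells lost to the mitochondrial limit, and the number of B lymphocytes per kidney was not measured.

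**Figure D2:**
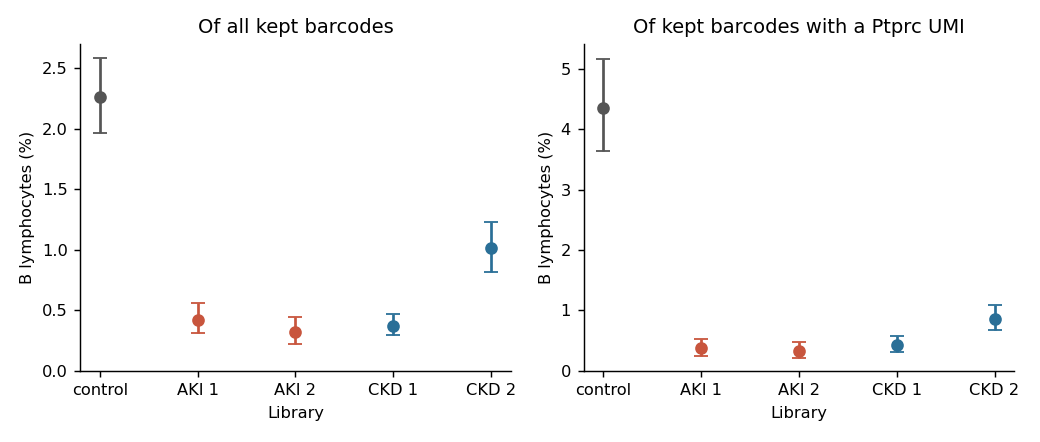
B lymphocytes as a percentage of kept barcodes and of kept barcodes with a Ptprc UMI, by library, with exact 95% binomial intervals. The control sits at 2.26% and 4.36%, CKD 2 at 1.01% and 0.859%, and the 3 remaining libraries at no more than 0.434% on both scales.

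In every library but AKI 1, most members had both heavy chains of naive follicular B lymphocytes. Ighm (chromosome 12, 113382178 to 113386350, minus strand) was detected in 98.1%, 87.2%, 94.3%, 93.1% and 95.8% of members, and Ighd (chromosome 12, 113370224 to 113379944) in 63.3%, 51.1%, 62.9%, 66.7% and 63.5%. T lymphocytes, which do not make either chain, held an Ighm UMI in 23.4% to 35.9% of cells and an Ighd UMI in at most 0.433%, at median depths of 3646 to 5999.5 UMIs. Igkc, at a higher level than Ighm in B lymphocytes of every library, had 0.0961 to 0.551 in T lymphocytes, where Ighm had 0.786 to 0.960, and the source of the Ighm UMIs in T lymphocytes was not tested. With each cell thinned to 1000 UMIs, which left out 1 control member, Ighd was detected in 33.5%, 29.8%, 22.9%, 34.7% and 31.2% of members. Both chains were found together in 62.8%, 44.7%, 60.0%, 62.5% and 63.5%.

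Receptors and regulators of recirculating B lymphocytes were found in all 5 libraries, at levels that varied between them. Fcer2a (CD23, the low-affinity IgE receptor of follicular B lymphocytes) had a level of 2.97, 1.56, 3.17, 2.71 and 3.32, against at most 0.00242 in T lymphocytes. Klf2, which keeps lymphocytes in circulation, had 25.8, 11.4, 19.4, 21.6 and 21.3, and Ccr7, the receptor that guides lymphocytes into lymph nodes, had 5.62, 4.04, 7.73, 7.12 and 11.7. AKI 1 was the lowest library for all 3 genes. Without its plasma-like members, described below, AKI 1 had 2.15 for Fcer2a and 14.1 for Klf2. The median log2 difference of the 12 follicular and naive genes was 0.30 for CKD against AKI, -0.31 for AKI against control and -0.04 for CKD against control, beside -0.01, 0.01 and 0.00 for all genes tested, and none of the 12 passed the test in any of the 3 comparisons.

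Genes listed for other B lymphocyte states ranged from undetected to common. The 14 marginal zone and B-1 genes summed to 6.86, 6.62, 6.70, 6.67 and 6.17 and the 13 memory and age-associated genes to 9.28, 12.8, 7.51, 15.2 and 17.5, both below their level in T lymphocytes (9.88 to 10.3 and 23.2 to 38.1). Plac8 of the first was found in 30.6% to 51.4% of members and Vim, an intermediate filament gene of many cell types, in 37.1% to 55.3%. Il10, a cytokine of regulatory B lymphocytes, had 0 UMIs in every library. Bcl6, a repressor that directs germinal centre formation, had a level of 0.353, 0.305, 0.295, 0.133 and 0.194. Cr2 (CD21), most abundant on marginal zone B lymphocytes, was detected in 13%, 6.38%, 8.57%, 9.72% and 6.25% of members, and Cd5, a B-1 lymphocyte antigen, had 1, 1, 1, 0 and 5 UMIs. Mki67, a proliferation antigen, was found in 1, 1, 1, 1 and 4 members, and in 6.24%, 10.1%, 10.7%, 28.5% and 25.2% of T lymphocytes. Cd27, found on memory B lymphocytes and on T lymphocytes, was found in 3, 1, 0, 1 and 4 members.

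In every library but CKD 2, 1 to 3 members held nearly all Jchain UMIs. Jchain had at least 10 UMIs in 7 members, of which the libraries held 3, 2, 1, 1 and 0, with counts of 1062, 889 and 163 for the control cells, 3048 and 1222 for AKI 1, 1951 for AKI 2 and 178 for CKD 1. Among all other members the highest Jchain counts were 1, 9, 0, 0 and 1. These cells are called plasma-like here, and the limit of 10 UMIs was set after the counts were seen. Their own UMIs were 17.1% to 70.1% immunoglobulin. Ms4a1 was at 0 in 5 of them and at 1 and 2 UMIs in the others, Pax5 was at 0 in all 7, and Mzb1, a chaperone of antibody secretion, had 14 to 69 UMIs.

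Each plasma-like member was dominated by 1 heavy chain class. Igha (the alpha constant gene, chromosome 12, 113218450 to 113223856) had 2748, 2505 and 379 UMIs in the 3 control cells, 4909 in the first AKI 1 cell and 3408 in the AKI 2 cell. Ighm instead had 3064 UMIs in the second AKI 1 cell and 472 in the CKD 1 cell, both with 0 Igha UMIs. Other classes had at most 19 UMIs in any of the 7. Thus 5 of the 7 made the alpha chain and 2 the mu chain.

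The variable genes differed among the 7 cells. The leading heavy chain variable genes were Ighv1-26, Ighv1-18 and Ighv1-12 in the control, Ighv14-3 and Ighv3-6 in AKI 1, Ighv6-6 in AKI 2 and Ighv11-2 in CKD 1, each with 90.9% to 100% of the cell's 4 to 20 heavy variable UMIs. The leading light chain variable genes were Igkv12-44 (98 of 103 light variable UMIs), Iglv1 (68 of 94) and Igkv6-15 (4 of 7) in the control, Igkv14-111 (43 of 52) and Igkv12-41 (30 of 33) in AKI 1, Igkv12-46 (39 of 46) in AKI 2 and Igkv14-126 (14 of 14) in CKD 1. No 2 cells shared a leading gene. The control cell led by Iglv1 had 6394 Igkc UMIs and 0, 91 and 7 of Iglc1, Iglc2 and Iglc3. Its leading light variable gene was thus not of its main light chain class. The first AKI 1 cell also had 48607 UMIs in all, with 160 UMIs of H2-Aa and 636 of Cd74, where the other 6 had 0 to 3 and 12 to 68, and whether it was a doublet was not tested.

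**Figure D3:**
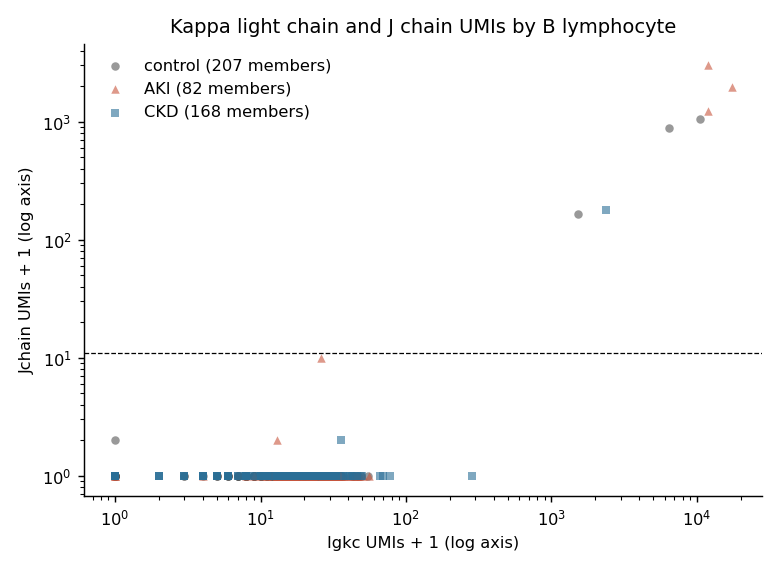
UMIs of Igkc and of Jchain (each plus 1, log axes) in every B lymphocyte, with the dashed line at 10 Jchain UMIs that separates plasma-like members. The 7 cells above the line have 163 to 3048 Jchain UMIs, and the highest cell below it has 9.

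These 7 cells set the immunoglobulin content of their libraries. Immunoglobulin genes took 4.04%, 12.8%, 16.5%, 2.04% and 1.11% of all B lymphocyte UMIs, and 0.896%, 0.855%, 1.38%, 0.769% and 1.11% without the plasma-like members. In the same order, the plasma-like members carried 79.4%, 95.2%, 93.5%, 63.4% and 0% of the immunoglobulin UMIs. Without them the AKI and CKD libraries overlapped.

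The switched share of heavy chain UMIs followed the same cells. Gamma, alpha and epsilon constant genes had 5645 UMIs in the control beside 1486 of Ighm and Ighd, a share of 79.2%, and made up 59.9% and 93.0% of the AKI libraries' heavy chain constant UMIs. For CKD 1 they took 0 of 840, which allows a share of up to 0.357%, and in CKD 2 they took 52 UMIs (6.52%, exact 95% interval 4.90 to 8.46). The CKD mean lay 73.2 percentage points below the AKI mean with a pooled SD of 16.9, and the smallest exact p that 2 against 2 libraries allow is 0.333. Without the plasma-like members the shares were 0.268%, 15%, 0.772%, 0% and 6.52%, and the groups overlapped. UMIs of 1 cell are not independent, so the interval covers counting error only.

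Few cells other than the plasma-like ones were switched. At least 3 switched UMIs were found in 3, 2, 1, 0 and 2 members. Beyond the plasma-like cells 1 of these was an AKI 1 cell with 39 Igha, 9 Jchain and 1 Ms4a1 UMIs, just under the limit of 10 Jchain UMIs. It held 39 of the 41 switched UMIs that AKI 1 had without its plasma-like members. In CKD 2 they were a cell with 19 Igha and 3 Ighg1 UMIs and another with 22 Ighg2b, 4 Ighg3, 2 Igha and 9 Ighm UMIs. The CKD 2 cells had 11 and 8 Ms4a1 UMIs, unlike the plasma-like members.

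Kappa light chains prevailed over lambda. Of the 442 members with at least 5 light chain UMIs, 227 had at least 80% from Igkc (chromosome 6, 70703419 to 70703950), 18 had at least 80% from the lambda genes and 197 reached neither limit. Lambda members were 7.35% of those assigned to either class (exact 95% interval 4.41 to 11.4), and numbered 9, 2, 1, 1 and 5 by library. That interval pools the cells of all libraries and covers counting error only. Members that reached neither limit numbered 109, 10, 15, 24 and 39, so the assigned part differed between libraries. Lambda UMIs were present in kappa members at a median of 2 to 3, beside medians of 16 to 30 kappa UMIs. Iglc2 and Iglc3 are near-identical copies, so their reads may be split between them. By library, 5, 1, 0, 0 and 3 lambda members had mostly Iglc1 UMIs and the others mostly Iglc2 and Iglc3.

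The replicated comparison asked which genes differ in B lymphocytes between the CKD and the AKI phase. UMIs were summed over the members of each library and tested with edgeR's quasi-likelihood test across 2774 genes, with Benjamini-Hochberg adjustment at 0.05. No gene passed (0% called), 59 genes (2.13%) had an unadjusted p under 0.05, and DESeq2 called 2, Igha and Igkc. Leaving out any 1 of the 4 libraries, which leaves an arm with a single library assumed to vary like the other group, raised the count to between 7 (without CKD 2) and 67 (without CKD 1).

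Immunoglobulin genes had the largest differences of this comparison. Igha had 4950 and 3410 UMIs in the AKI libraries and 0 and 21 in the CKD libraries, with a log2 difference of -9.55 (SE 1.00, adjusted p = 0.0533), short of the threshold. Igkc had 24828, 18168, 3405 and 2244 UMIs (log2 difference -3.66, SE 0.493, adjusted p = 0.147), and Jchain had 4280, 1951, 178 and 1 (-5.56, SE 1.49, unadjusted p = 0.00663). The groups did not overlap in any of the 3, but 2 against 2 libraries cannot give an exact permutation p below 0.333. The share of all tested genes without overlap is not given here, so this is a description only. A single member gave 99.2% and 99.9% of the Igha UMIs of the AKI libraries and 48.3% and 95.4% of their Igkc UMIs. Without the plasma-like members 0 genes passed and 47 had an unadjusted p under 0.05.

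The plasma cell list moved with these cells. Of its 14 genes 7 were tested, and all 7 had lower estimates in CKD (median log2 difference -0.86, all genes -0.01), none past the test. The summed level of the 14 genes was 39.6, 177, 159.8, 18.8 and 6.95, and 7.40, 7.30, 8.87, 9.82 and 6.95 without the plasma-like members, where the groups overlapped. Mzb1 had 2.44, 4.84, 5.67, 1.82 and 2.38, and Xbp1, the factor of the secretory programme, had 1.14, 1.83, 0.884, 0.756 and 0.277.

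Against the control, few genes passed in the AKI phase, and 4 of them are known from cells other than B lymphocytes. Of 4149 genes tested in the fit of all 5 libraries, 5 passed (0.121%), 2 higher and 3 lower in AKI, and 173 had an unadjusted p under 0.05. The control has no replicate, so it was assumed to vary like the other groups, and the same library served as control for CKD. Without the plasma-like members 0 genes passed, and DESeq2 called 1 gene, Ccl5.

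Of the 2 genes that were higher in AKI, both belong to myeloid cells. Lyz2 (lysozyme of macrophages and neutrophils) had 1, 58, 19, 9 and 4 UMIs, and its summed AKI level was 148 times the control's (exact 95% interval 25.8 to 5914, edgeR adjusted p = 0.0283). In AKI 1, 36 of the 58 UMIs came from 1 member, and the interval covers counting error only. Fcer1g, the signalling chain of Fc receptors, had 8, 39, 20, 10 and 25 UMIs (log2 difference 3.88, SE 0.620, adjusted p = 0.0419), of which 1 member held 36 in AKI 1 and another 10 in AKI 2. Lyz2 in T lymphocytes had a level of 0.0861, 0.850, 1.32, 0.989 and 0.612, and in all other kept barcodes of 1.71, 16.5, 26.7, 6.53 and 6.84. How much of the difference came from RNA of other cells was not tested.

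Of the 3 genes that were lower in AKI, 2 are tubule genes and 1 came from a single cell. Egf, made by the distal nephron, had 374, 2, 0, 7 and 1 UMIs (control level 97.4 times that of AKI, exact 95% interval 26.8 to 807, edgeR adjusted p = 0.0283), and Kl, the klotho gene of the distal tubule, had 132, 1, 0, 5 and 2 (68.8 times, 12.1 to 2736, adjusted p = 0.0398). The control was also the highest library in T lymphocytes, with Egf at 7.85, 0.129, 0.0308, 0.277 and 0.0402 and Kl at 1.77, 0.216, 0.121, 0.272 and 0.0662. Ccl2, a chemokine for monocytes, had 168, 4, 2, 5 and 6 UMIs (log2 difference -3.75, SE 0.543, adjusted p = 0.0283), and all 168 control UMIs lay in 1 member.

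CKD against the control gave 3 genes of 4149 (0.0723%), all lower in CKD, with 181 at an unadjusted p under 0.05 and 0 by DESeq2. Igha had 5636 UMIs in the control and 0 and 21 in CKD (log2 difference -7.85, SE 0.900, edgeR adjusted p = 0.00866), and without the plasma-like members its estimate was 2.45, in the other direction. Ccl2 (-3.59, SE 0.490, adjusted p = 0.0244) rested on the same control cell as above. Egf (-5.12, SE 0.750, adjusted p = 0.0314) moved as it did in T lymphocytes.

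**Figure D4:**
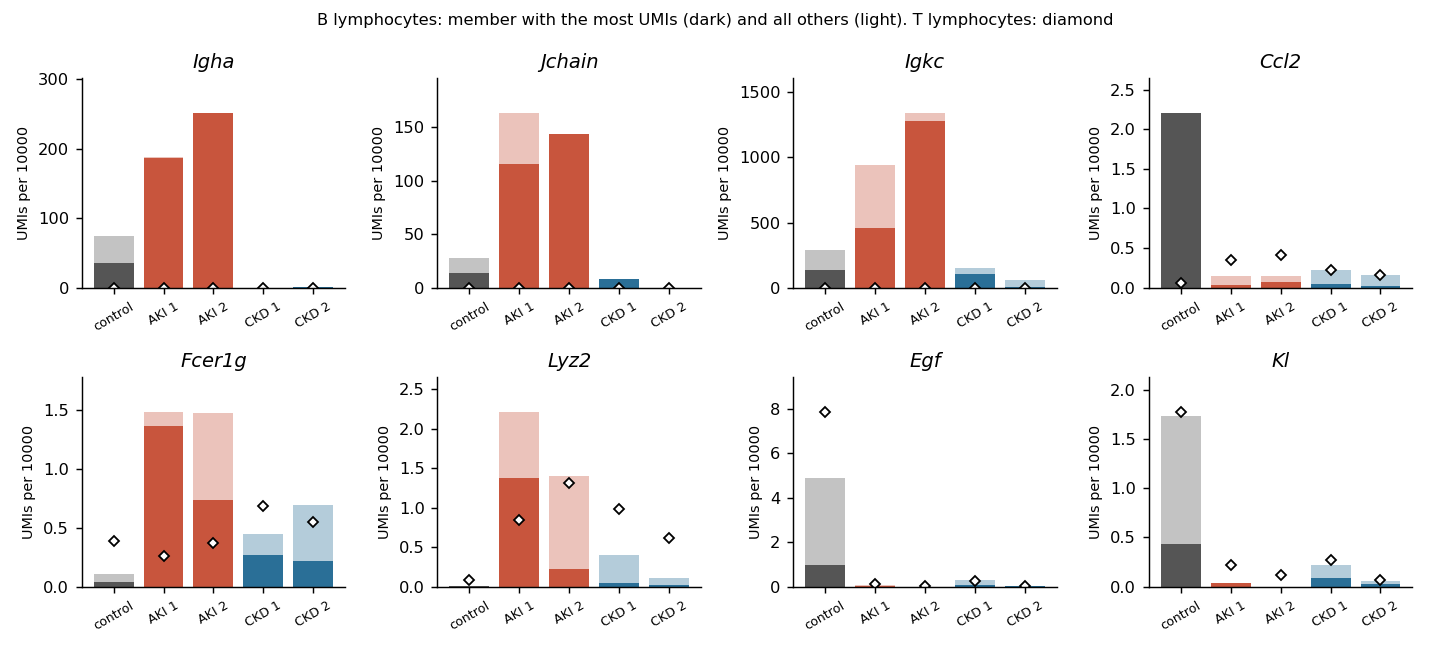
Level (UMIs per 10000) in B lymphocytes by library of Igha, Jchain, Igkc, Ccl2, Fcer1g, Lyz2, Egf and Kl, as bars from 0 with the contribution of the member with the most UMIs dark and that of all other members light, and the level in T lymphocytes as a diamond. One AKI 1 member holds 4909 of 4950 Igha UMIs and 1 control member all 168 Ccl2 UMIs, while Egf and Kl are spread over 151 and 55 control members.

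MHC class II genes, which present antigen to CD4 T lymphocytes, had their lowest level in the control. Cd74, the invariant chain, had a level of 71.6, 99.7, 97.8, 93.8 and 134, and H2-Aa, an alpha chain, had 21.5, 30.2, 33.4, 29.2 and 46.1. Both were detected in 97.1% to 100% of members in every library. The 4 disease libraries lay above the control for both genes, and for the summed 13 genes at 145, 203, 205, 198 and 287.

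None of the class II genes passed the test. For Cd74 the log2 difference was 0.57 (SE 0.434) for AKI and 0.60 (SE 0.435) for CKD against control, both with an edgeR adjusted p of 1.00. Over the list, 11 of 13 estimates were positive for AKI (median 0.57) and 13 of 13 for CKD (median 0.74), where all genes had medians of 0.01 and 0.00. CKD against AKI gave a median of 0.09. T lymphocytes had the same genes at 6.44, 14.2, 18.1, 19.0 and 18.4, also lowest in the control, and the part of free RNA in the B lymphocyte difference was not tested.

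Class I genes, which present antigen to CD8 T lymphocytes, were also lowest in the control. B2m, the light chain of class I molecules, had 11.1, 13.9, 13.5, 11.5 and 16.0, and the summed level of the 15 genes was 37.1, 45.5, 47.0, 46.4 and 56.0, below the T lymphocyte level of 70.4 to 101. Median log2 differences were 0.42 for AKI and 0.39 for CKD against control, with no gene past the test. Of the 26 interferon-stimulated genes listed, 8 were tested against the control, with a median of 1.11 in AKI and 0.52 in CKD and none called.

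Genes of the NF-kB list differed in direction. Rel and Pim1 had higher levels in the 4 disease libraries than in the control without passing the test. Rel, an NF-kB subunit that B lymphocytes need to divide, had a level of 5.31, 7.16, 9.57, 10.3 and 11.4. Pim1, a survival kinase, had 3.58, 5.98, 7.73, 5.29 and 7.31. Cd83, an activation antigen, had 5.45, 3.73, 6.55, 6.67 and 8.58 and overlapped with the control. Nfkbia of the same list had 11.2, 9.82, 9.94, 11.3 and 16.4, with both AKI libraries below the control. Nfkbiz had 1.80, 1.10, 0.957, 1.47 and 1.27, highest in the control. The 14 genes of the NF-kB list had medians of 0.36 for AKI and 0.44 for CKD against control, and 0.17 for CKD against AKI. Against the control, 10 estimates were positive and 4 negative for AKI, and 12 and 2 for CKD. The 18 co-stimulation and checkpoint genes summed to 13.1, 15.6, 18.5, 12.2 and 22.5, with CKD 1 below the control, and of the 9 tested 6 had a positive estimate in each phase (medians 0.43 for AKI and 0.23 for CKD) and none was called.

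Cd86, a co-stimulatory ligand for T lymphocytes, is a member of that list. Its level was 0.235, 0.647, 1.03, 1.02 and 0.997, and it was detected in 8.21%, 29.8%, 34.3%, 23.6% and 24.0% of members. After thinning to 1000 UMIs it was detected in 1.94%, 12.8%, 11.4%, 13.9% and 10.4%. The 4 disease libraries all lay above the control, but the log2 differences of 1.88 (SE 0.568, edgeR adjusted p = 0.573) and 2.00 (SE 0.549, adjusted p = 0.429) did not pass. T lymphocytes had 0.0981 to 0.247.

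Chemokines that T lymphocytes make in quantity were also higher outside the control. Ccl5 had a level of 0.105, 1.45, 6.63, 0.979 and 3.68 in B and of 30.0, 60.2, 61.9, 35.8 and 45.0 in T lymphocytes. Ccl4 had 0.510, 3.46, 6.70, 1.56 and 6.89 in B and 10.8 to 22.7 in T lymphocytes. For AKI against control the edgeR adjusted p was 0.361 for Ccl5 and 0.508 for Ccl4. The share of these UMIs that was free RNA was not tested.

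Receptors for survival factors were present at low levels. Tnfrsf13c, the BAFF receptor on which mature B lymphocytes depend, had a level of 1.10, 0.914, 0.957, 1.60 and 1.61, with both CKD libraries above the others. Tnfrsf13b (TACI) had 0.536, 0.381, 0.368, 0.133 and 0.277, with both CKD libraries below the others, but on only 41, 10, 5, 3 and 10 UMIs. Cd40, which receives help from T lymphocytes, had 0.327, 0.0761, 0.368, 0.311 and 0.332, on 25, 2, 5, 7 and 12 UMIs. Of the 14 genes of this list 7 were tested for CKD against AKI, with a median of 0.18 and none called. Signalling genes below the B cell receptor differed little, with a summed level of 17.0, 14.1, 19.5, 18.8 and 20.1 over 22 genes and a median of 0.10.

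**Figure D5:**
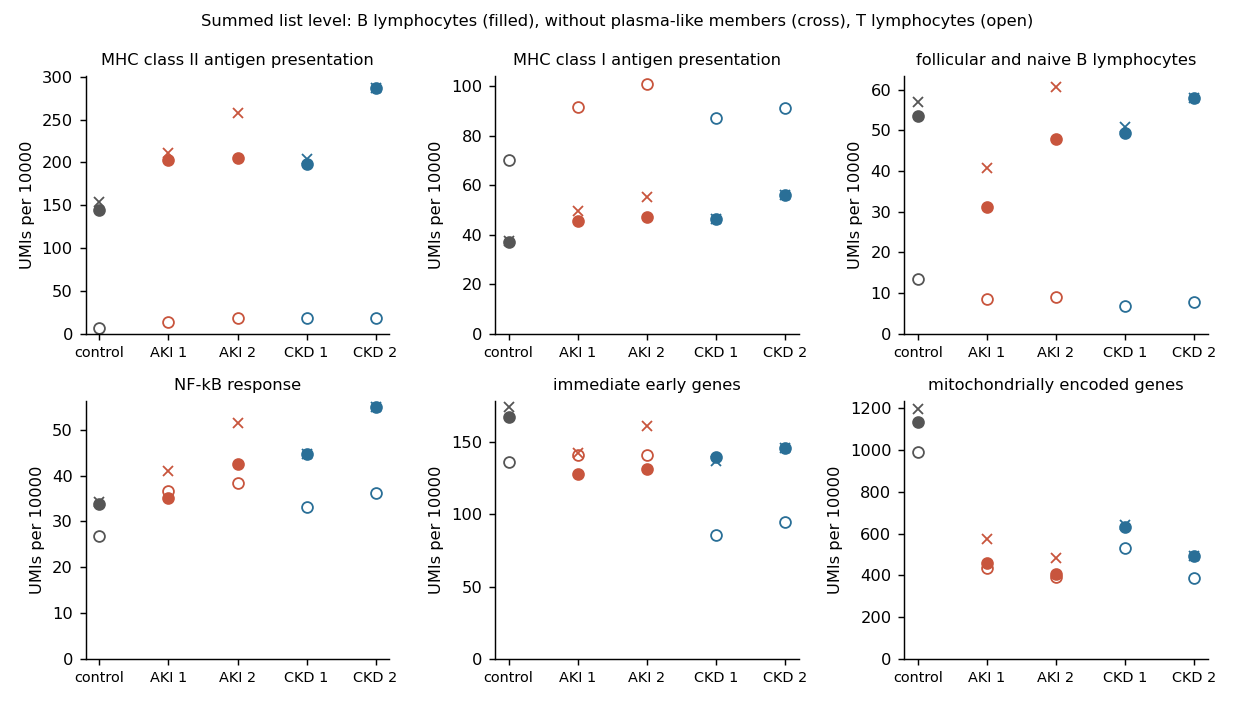
Summed level (UMIs per 10000) of 6 gene lists by library in B lymphocytes (filled), in B lymphocytes without plasma-like members (cross) and in T lymphocytes (open). MHC class II genes stand at 198 to 287 in the 4 disease libraries and at 145 in the control, and mitochondrially encoded genes stand at 1133 in the control and at 408 to 633 elsewhere, in parallel with T lymphocytes.

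Mitochondrial transcripts had their highest level in the control. The 13 mitochondrially encoded genes summed to 1133, 458, 408, 633 and 492 in B and to 992, 435, 394, 529 and 386 in T lymphocytes. The median log2 difference was -1.46 for AKI and -1.16 for CKD against control. In each, 12 of 13 genes had an unadjusted edgeR p under 0.05, beside 4.17% and 4.36% of all genes. None passed the adjusted threshold. The median B lymphocyte had 8.72%, 5.08%, 4.51%, 5.50% and 4.60% mitochondrial UMIs. The library with the highest level was also the one whose barcodes most often exceeded the mitochondrial limit, and the part of that limit or of cell quality in the difference was not tested.

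Nuclear genes of the respiratory chain had lower estimates against the control too, with 28 of 29 negative for AKI (median -0.58) and 27 of 29 for CKD (median -0.44), none called. Of all genes tested 50.7% had a positive estimate for AKI (median 0.01) and 49.9% for CKD (median 0.00). The summed level of the 29 genes was 119, 104, 51.0, 143 and 61.3, so CKD 1 lay above the control on this scale. Without the members of more than 3 times the median UMIs the sums were 83.7, 87.5, 58.0, 79.7 and 57.3. Leaving those members out raised the calls against the control to 36 for AKI, among them mt-Co1, mt-Co2, mt-Nd1, Fos, Jun, Ccl4 and Ccl5, and to 24 for CKD, and left 0 for CKD against AKI.

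Immediate early genes, switched on within minutes by stimulation or tissue handling, varied within groups. Fos had a level of 19.5, 16.4, 6.26, 9.79 and 6.26, and Jund 32.6, 30.3, 45.4, 40.3 and 46.0. Jun had 23.5, 10.9, 9.42, 18.4 and 10.5, with 1 AKI library above 1 CKD library. Heat shock genes summed to 125, 118, 115, 142 and 97.8 over 11 genes, and the groups overlapped. Cell cycle genes summed to 8.78, 10.9, 12.4, 11.5 and 12.2, against 23.2 to 56.1 in T lymphocytes.

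Whether a CKD against AKI difference was particular to B lymphocytes was tested against T lymphocytes of the same libraries, as the interaction of cell type and phase with the library as a block. Of 13926 genes 26 passed (0.187%), 8 with a higher and 18 with a lower CKD against AKI difference in B than in T lymphocytes. Igkc (log2 difference of differences -2.77, SE 0.158, edgeR adjusted p = 1.3e-64) and Igha (-6.00, SE 0.355, adjusted p = 2.9e-27) led them. This fit estimated the spread over B and T lymphocyte sums together (common dispersion 0.0310, beside 0.104 for B lymphocytes alone). The p-values of all 26 genes therefore do not measure the spread of B lymphocytes alone between libraries. By edgeR neither Igkc nor Igha passed in B lymphocytes alone, and 1 member held 95.4% and 99.9% of their AKI 2 UMIs. Without the plasma-like members 11 genes passed and the Igha estimate was 1.78. Without the members of more than 3 times the median UMIs 27 passed, 21 higher and 6 lower, of which 5 (Igkc, Hspb1, Plvap, Dnajb1 and Jun) were among the 26. Scaling by library size only gave 39, 22 higher and 17 lower, so the balance of directions depended on both choices. Without AKI 1 only 3 passed.

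Jun, an immediate early gene and component of AP-1, had a difference in the opposite sense. Its level in B lymphocytes was 10.9 and 9.42 in AKI and 18.4 and 10.5 in CKD, so that CKD 2 lay below AKI 1, and in T lymphocytes 13.4 and 12.0 in AKI and 7.81 and 7.51 in CKD (difference of differences 1.06, SE 0.262, edgeR adjusted p = 0.0315). Of the 21 immediate early genes, 20 had a positive estimate (median 0.74, all genes 0.04) and Jun was the 1 that passed. Jun no longer passed with RLE normalization, with at least 6 marker UMIs, with no filter on low counts or with any 1 of the 4 libraries left out. The summed level of the 21 genes in T lymphocytes was 141 and 141 in AKI and 85.5 and 94.7 in CKD, and in B lymphocytes 128, 131, 139.9 and 146. The T lymphocyte level was thus lower in both CKD libraries, and the B lymphocyte level was not.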

How the data were processed

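For each of the 5 libraries the authors deposited a matrix of whole-number UMI counts, genes by barcodes and not normalized, prepared with Chromium Single Cell 3′ chemistry (v2 kit) and counted after alignment to the mouse genome. The submitters' processing notes name Cell Ranger 7.2.0, STAR and GRCm39, whereas headers of the AKI and CKD files give Cell Ranger 5.0.0 and the control file, exported in another form, gives no version. For the control, group and export cannot be told apart. The study's removal of free RNA and doublets is not part of these counts, so free RNA remains, and no doublet caller was run here.

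All 5 libraries list 32285 genes, matched by identifier. Coordinates come from GENCODE's annotation of GRCm39. Cells are not replicates: UMIs were summed over the B lymphocytes of each library, with at least 20 members required, and tested with edgeR 4.0.16 (TMM, filterByExpr, quasi-likelihood test, Benjamini-Hochberg adjustment at 0.05) in R 4.3.3, and DESeq2 1.42.0 was run beside it. CKD was compared with AKI over 4 libraries, and each phase with the control in a fit of all 5. The comparison of B with T lymphocytes had the library as a block. The tests were first run on simulated counts with known changes. Levels, shares and exact binomial intervals at the 95% level were computed with Python 3.11.15, numpy 2.4.6, scipy 1.17.1 and pandas 2.3.3, with 3 counts as the limit that a count of 0 allows. Depth limits what can be seen, since AKI 2 holds 35 members with 135816 UMIs. A fold against a group with 1 to 3 UMIs is given as a ratio of summed levels with an exact interval, since a fitted fold change then depends on the prior count. Such an interval covers counting error only, since UMIs of 1 cell are not independent.

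The B lymphocyte conditions, the 31 gene lists and the tests were chosen with earlier results of these data known. The text names, for each comparison, up to 10 called genes in each direction whose groups do not overlap (5 for B against T lymphocytes), up to 5 genes with the most UMIs from each list, and all immunoglobulin constant genes. Cd5, Cd27, Cd40, Csf1r, Adgre1, Fcer2a, Mki67, Nfkbiz, Pax5, Il10, Tnfrsf13b, the variable genes and the genes called without the deepest members were named after their values had been seen. Some genes that these rules name are not reported here. Alternatives covered the marker and mitochondrial limits, shared barcodes, normalization, the filter on low counts, immunoglobulin genes, the test, the libraries in the fit, the replicate block and each library left out. Leaving out plasma-like and deep members was added after the data were seen.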

Additional observations from a re-analysis of the deposited data

Results flagged for a closer look

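The 10 genes below differed between B and T lymphocytes in their CKD against AKI difference, by the interaction term of edgeR's quasi-likelihood test over 13926 genes, and their ratios of B to T lymphocyte level did not overlap between the phases. The p-values of this fit do not measure the spread of B lymphocytes alone between libraries, as given above. UMIs are those of B lymphocytes in AKI 1, AKI 2, CKD 1 and CKD 2. Without members of more than 3 times the median UMIs, 3 of the 10 (Plvap, Hspb1 and Dnajb1) still passed.

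Genes with a lower difference in B lymphocytes came mostly from single cells. Igha had 4950, 3410, 0 and 21 UMIs (log2 difference of differences -6.00). Fxyd4, a regulator of the sodium pump in the collecting duct, had 121, 6, 6 and 0 (-3.79), with 116 of the 121 in 1 member. Cacna1s, a calcium channel subunit, had 32, 5, 0 and 1 (fitted value -6.21, which depends on the prior count). The summed AKI level was 54.4 times that of CKD (exact 95% interval 9.18 to 2207). Of the 32 UMIs 21 lay in 1 member, and the interval covers counting error only. Cenpf, a kinetochore gene of dividing cells, had 8, 1, 0 and 0 (adjusted p = 0.00150), each library's UMIs in a single member, and was at least 4.41-fold higher in AKI against the limit of 3 counts over the CKD libraries. In T lymphocytes its level was 0.282 and 0.312 in AKI and 0.783 and 0.617 in CKD, and that rise is part of the difference tested. Slpi, a secreted protease inhibitor, had 7, 16, 0 and 0 (adjusted p = 0.0275), all 16 in 1 member, and was at least 11.3-fold higher in AKI by the same limit.

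Genes with a higher difference in B lymphocytes included endothelial and heat shock genes. Eng, an endothelial co-receptor, had 0, 0, 16 and 2 UMIs (adjusted p = 0.0367), each CKD library's in 1 member, and was at least 4.08-fold higher in CKD. Plvap, an endothelial diaphragm protein, had 1, 1, 40 and 2 (fitted value 4.51), with 39 of the 40 in 1 member. Its summed CKD level was 14.3 times that of AKI (exact 95% interval 3.71 to 122). That interval covers counting error only, since UMIs of 1 cell are not independent. In CKD 2 the Plvap level of 0.0554 lay between those of AKI 1 (0.0381) and AKI 2 (0.0736). Hspb1, a small heat shock protein, had 21, 12, 135 and 54 (2.57), with 73 and 31 in 1 member of each CKD library. Dnajb1, a co-chaperone, had 57, 71, 144 and 118 (1.30) with no member above 24.6% of a library's UMIs, at levels of 2.17, 5.23, 6.41 and 3.27 in B and 6.16, 6.18, 3.75 and 2.57 in T lymphocytes. Cd200, an inhibitory ligand present on activated B lymphocytes, had 4, 0, 22 and 29 (3.13), in 4, 0, 10 and 16 members, and the control had 35 UMIs in 30 members. Its level in T lymphocytes was 0.366 to 0.456. Whether the single cells were doublets was not tested.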

How the results depend on the processing

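The difference in B lymphocyte share between CKD and AKI moved by less than the spread between libraries under every alternative run, to 0.248 to 0.349 percentage points, and to 0.00176 (without CKD 2) to 0.639 (without CKD 1) with 1 library left out. The difference in switched share of -73.2 percentage points became -3.42 as a mean within members, 1.12 without members holding a Jchain UMI, -4.61 without plasma-like and -8.04 without deep members, and -89.8 to -56.6 with 1 library left out.

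The number of genes called for CKD against AKI (0) became 3 with at least 6 marker UMIs, 1 without shared barcodes, 52 with no filter on low counts, 2 by DESeq2 and 2 with all 5 libraries in the fit. It lay between 7 (without CKD 2) and 67 (without CKD 1) with 1 library left out. For AKI against control (5) it became 9 with at least 6 marker UMIs, 2 at the limit of 15% mitochondrial UMIs, 0 without plasma-like and 36 without deep members, 3 with RLE normalization, 0 with library size only, 71 with no filter, 1 by DESeq2, and 50 (without AKI 2) to 71 (without CKD 1) with 1 library left out. For CKD against control (3) it became 5 and 13 with at least 3 and 6 marker UMIs, 6 without shared barcodes, 24 without deep members, 0 with library size only, 70 with no filter, 0 by DESeq2, and 27 (without CKD 2) to 151 (without CKD 1). For B against T lymphocytes (26, 8 of them higher) it became 11 without plasma-like members, 27 without deep members (21 higher, 5 shared with the 26), 39 with library size only (22 higher, 25 shared), and 3 (without AKI 1) to 22 (without CKD 2). The cause of these changes was not tested, except that the fits with 1 library left out have fewer samples.

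Leaving out the plasma-like members turned the direction of Txndc5 for CKD against AKI (0.14), of Igha for CKD against control (2.45) and of Igha against T lymphocytes (1.78). Of 352 values of single genes 247 kept their direction and side of the threshold, 33 passed it, 69 no longer did and 3 turned. Of 488 list medians 469 moved by less than the spread and 19 by more. Scaling by library size only moved the median of all genes to 0.20 for CKD against AKI, to -0.12 for AKI against control and to 0.16 (from 0.04) for B against T lymphocytes.

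AKI 1 and CKD 1, and AKI 2 and CKD 2, share only a number in the labels. Their deviations from the group means correlated at r = 0.444 across 2774 genes, with 2 pairs, and with the replicate block 8 genes were called for CKD against AKI, all lower (Cryab, Fxyd4, Igha, Igkc, Jchain, Lyz2, Mzb1 and Txndc5). Leaving out members with 2 or more proximal tubule UMIs could not be run, since a library then kept 1 member. Counts are low: AKI 2 has 35 members, so genes at a few UMIs rest on 1 or a few cells.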

Other observations

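Ligands that attract B lymphocytes or keep them alive were measured in the kept barcodes that were not B lymphocytes. Cxcl13, the chemokine that draws B lymphocytes into follicles, had a level of 0.00999 in the control, 0.106 and 0.112 in AKI and 0.0116 and 0.0190 UMIs per 10000 in CKD, so that both AKI libraries lay above the others. Ccl21a, a lymphatic chemokine for CCR7, had 0.217 in the control, 6.2e-04 and 5.1e-04 in AKI, and 0.171 and 0.115 in CKD, with both AKI libraries below the others. Tnfsf13b (BAFF) had 0.0298, 0.0477, 0.0794, 0.0261 and 0.0341 in the order of the report, and Tnfsf13 (APRIL) had 0.0526, 0.101, 0.135, 0.0497 and 0.0418. Cd40lg, the T lymphocyte ligand of CD40, had 0.0723, 0.182, 0.152, 0.0920 and 0.228. These are sums over all other cells, so they move with the mix of cell types, and they were not tested.

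Plasma cells can lie outside the B lymphocyte conditions, since they give up Ms4a1. Kept barcodes with at least 4 UMIs of Jchain, Mzb1, Sdc1 and Derl3 together, at least 2 of these 4 genes detected, the same limits on Cd3 and C1q UMIs and at most 1 UMI of Siglech numbered 9, 14, 2, 4 and 5, of which 5, 11, 1, 3 and 4 were not among the B lymphocytes.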
